A study of Mus musculus with 12 samples.

Results

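The heat shock genes examined here were Hspa1a, Hspa1b, Hspa8, Hspa5, Hspa4, Hsp90aa1, Hsp90ab1, Hspb1, Hspb8 and Dnajb1, chosen by name and represented by every probe set that the platform annotation assigns to 1 of them alone. Of these 10 genes, 9 had such a probe set, with 27 probe sets among the 45101 on the array, and no probe set named a member together with another gene. Hsp90ab1, the constitutive cytosolic HSP90, had no probe set in that annotation and was not analysed here. By its title the series compares ways of amplifying nanogram amounts of RNA. RNA was measured on 12 mouse expression arrays in 4 groups of 3. Kidney total RNA from Ambion was assayed at 10 ng, and a universal mouse reference RNA (supplier spelt Strategene in the labels) at 10, 3 and 0.3 ng. This kind of reference is a commercial pool made from cell lines, so it stands for no single tissue or cell type. Strain, genotype, age and treatment are not given for either RNA. All 12 titles carry the code pRS, which is not explained. Whether replicates were separate animals, cultures or amplifications is not stated either, so a p-value here reflects the spread among these arrays alone, which may be technical.

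Heat shock proteins are molecular chaperones that bind unfolded or partly folded proteins and help them fold, move or be degraded. HSP70 proteins do this in cycles of ATP hydrolysis, which J-domain proteins start and nucleotide exchange factors complete. HSP90 proteins act later, on clients such as kinases and steroid receptors, while small heat shock proteins hold unfolded clients without using ATP. Some of these genes are expressed in nearly all cells, and others are switched on by heat shock factor when unfolded protein accumulates. In kidney they are known for their response to ischaemia and, in the medulla, to high salt and urea.

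Promoter windows from RefSeq (GRCm38.p6), running from 250 bases before to 50 after a transcription start, were matched by symbol for 7 of the 10 genes. They are shown for the genes whose differences the results turn on, the near-identical pair Hspa1a and Hspa1b and the small heat shock gene Hspb8, with Hspa5 as the member of the endoplasmic reticulum. Capitals mark GAANNTTC, an inverted pair of the units that heat shock factor binds, in the first 3 sequences, and the endoplasmic reticulum stress element, CCAAT and CCACG separated by 9 bases, in the last. All are written 5′ to 3′ on the strand of the gene: Hspa1a at chr17:34972107-34972406 (minus strand), Hspa1b at chr17:34959189-34959488 (minus), Hspb8 at chr5:116422815-116423114 (minus) and Hspa5 at chr2:34771840-34772139 (plus).
Hspa1a: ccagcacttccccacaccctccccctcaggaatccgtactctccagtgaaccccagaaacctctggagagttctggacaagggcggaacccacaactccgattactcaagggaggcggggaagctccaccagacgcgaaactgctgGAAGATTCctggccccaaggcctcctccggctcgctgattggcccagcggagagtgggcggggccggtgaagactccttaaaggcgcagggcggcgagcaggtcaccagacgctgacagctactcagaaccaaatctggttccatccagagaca
Hspa1b: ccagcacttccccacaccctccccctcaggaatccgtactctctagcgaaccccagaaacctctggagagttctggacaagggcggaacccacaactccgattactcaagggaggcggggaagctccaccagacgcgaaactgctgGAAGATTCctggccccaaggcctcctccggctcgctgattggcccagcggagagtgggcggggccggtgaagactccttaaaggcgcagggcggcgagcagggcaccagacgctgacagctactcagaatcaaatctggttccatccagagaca
Hspb8: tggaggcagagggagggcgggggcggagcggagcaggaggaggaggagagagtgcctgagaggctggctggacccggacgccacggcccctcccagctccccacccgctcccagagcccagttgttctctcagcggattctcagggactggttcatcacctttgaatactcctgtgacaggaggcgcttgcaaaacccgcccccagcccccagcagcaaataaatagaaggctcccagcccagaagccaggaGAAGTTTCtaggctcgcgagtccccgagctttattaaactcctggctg
Hspa5: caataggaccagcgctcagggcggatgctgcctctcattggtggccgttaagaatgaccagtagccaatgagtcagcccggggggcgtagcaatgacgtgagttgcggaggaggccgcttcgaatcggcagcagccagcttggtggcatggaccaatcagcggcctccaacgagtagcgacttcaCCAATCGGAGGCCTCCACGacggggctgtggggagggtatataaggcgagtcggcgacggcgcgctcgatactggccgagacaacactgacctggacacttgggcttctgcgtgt

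The windows of Hspa1a and Hspa1b were identical at 296 of 300 positions (98.7%), and each held GAANNTTC with its first base at -104 from the start. Hspb8 held it at position 2 after the start. The window of Hspb1, not shown, held it at -117 and -97. Those of Hspa5, Hspa4 and Dnajb1 had no match. Searched on both strands, GAANNTTC occurred in 7.86% of 32851 RefSeq windows of the same length. The mirrored pair TTCNNGAA occurred in 8.52% of them, and the longer heat shock element, in which GAANNTTC is followed by any 2 bases and GAA so that both pairs overlap, in 0.603%; neither was in a member's window. The endoplasmic reticulum stress element lay at -65 in Hspa5 and in 0.119% of all windows. Such a match describes letters in a window and shows no binding.

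Signals are the deposited linear intensities, in units of a scale on which the 2% trimmed mean of every array is 500. A signal of 33.65, set by Bacillus control probe sets, is used as the background level. Medians of the arrays ran from 47.5 in the 0.3 ng group to 78.3 in the 3 ng group, and 33.2% to 42.4% of probe sets lay below background. Fold changes below are differences of mean log2(signal + 3.9), tested with limma on the 2 groups compared and adjusted by the Benjamini-Hochberg method over the 27022 probe sets that passed a filter on low signal; a probe set is called when the adjusted p is under 0.05. Of the 27 heat shock probe sets 26 passed that filter, and the one that did not was 1433251_at of Hsp90aa1, with mean signals of 50.0 in kidney and 27.1, 34.4 and 17.3 in the reference at 10, 3 and 0.3 ng. The labelled tissue was checked against its markers, and all 9 measured kidney epithelial markers were higher in kidney than in the reference at 10 ng, with summed signals of 56297 to 57967 against 498 to 604. All 6 markers of dividing cells and all 5 of fibroblasts were lower, all 5 of endothelium were higher, and of 6 macrophage markers 3 were higher and 2 lower. Of the 9 epithelial markers, 3 lay below background on every 10 ng reference array. A marker could pass the filter on low signal through 1 group alone, so these calls are not independent of it. In such mixed RNA, fewer cells of a type and less RNA per cell cannot be told apart. The ratio of 3′ to 5′ signal of the Actb controls was 5.37 ± 0.126 in kidney and 3.75 ± 0.170 in the reference at 10 ng (mean ± SD, n = 3), while that of Gapdh was 1.13 in both. The part of cell makeup and of RNA integrity in the differences below was not tested.

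Between kidney and the reference at 10 ng, heat shock genes were called in both directions, and Hspa4 was called in both on different probe sets. The main probe sets of Hspa8, Hspa5 and Hsp90aa1 gave log2 fold changes of only -0.10 to -0.07. A gene's main probe set is the one with the highest mean over all arrays. By main probe sets, 3 of 9 genes were higher in kidney (Hspa1a, Hspa1b and Hspa4) and 1 was lower (Hspb8). Among all genes tested in this way 62.7% were called, 27.1% higher and 35.6% lower, so that 4 of 9 is not above the background. Of the 26 heat shock probe sets 11 were called, 4 higher and 7 lower in kidney, against a background of 60.1% of all probe sets, 22.9% higher and 37.2% lower. The median log2 fold change was -0.24 over the 26 probe sets and -0.34 over all 27022. The median of all probe sets was -0.09 when arrays were centred on their medians and -0.22 after quantile normalization, and the heat shock calls were then 6 higher and 7 lower, and 5 higher and 8 lower. By main probe sets the genes stayed at 3 higher and 1 lower under both scalings. Calls over all probe sets split into 38.2% higher as deposited, 49.1% after centring and 43.6% after quantile normalization.

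**Figure D1:**
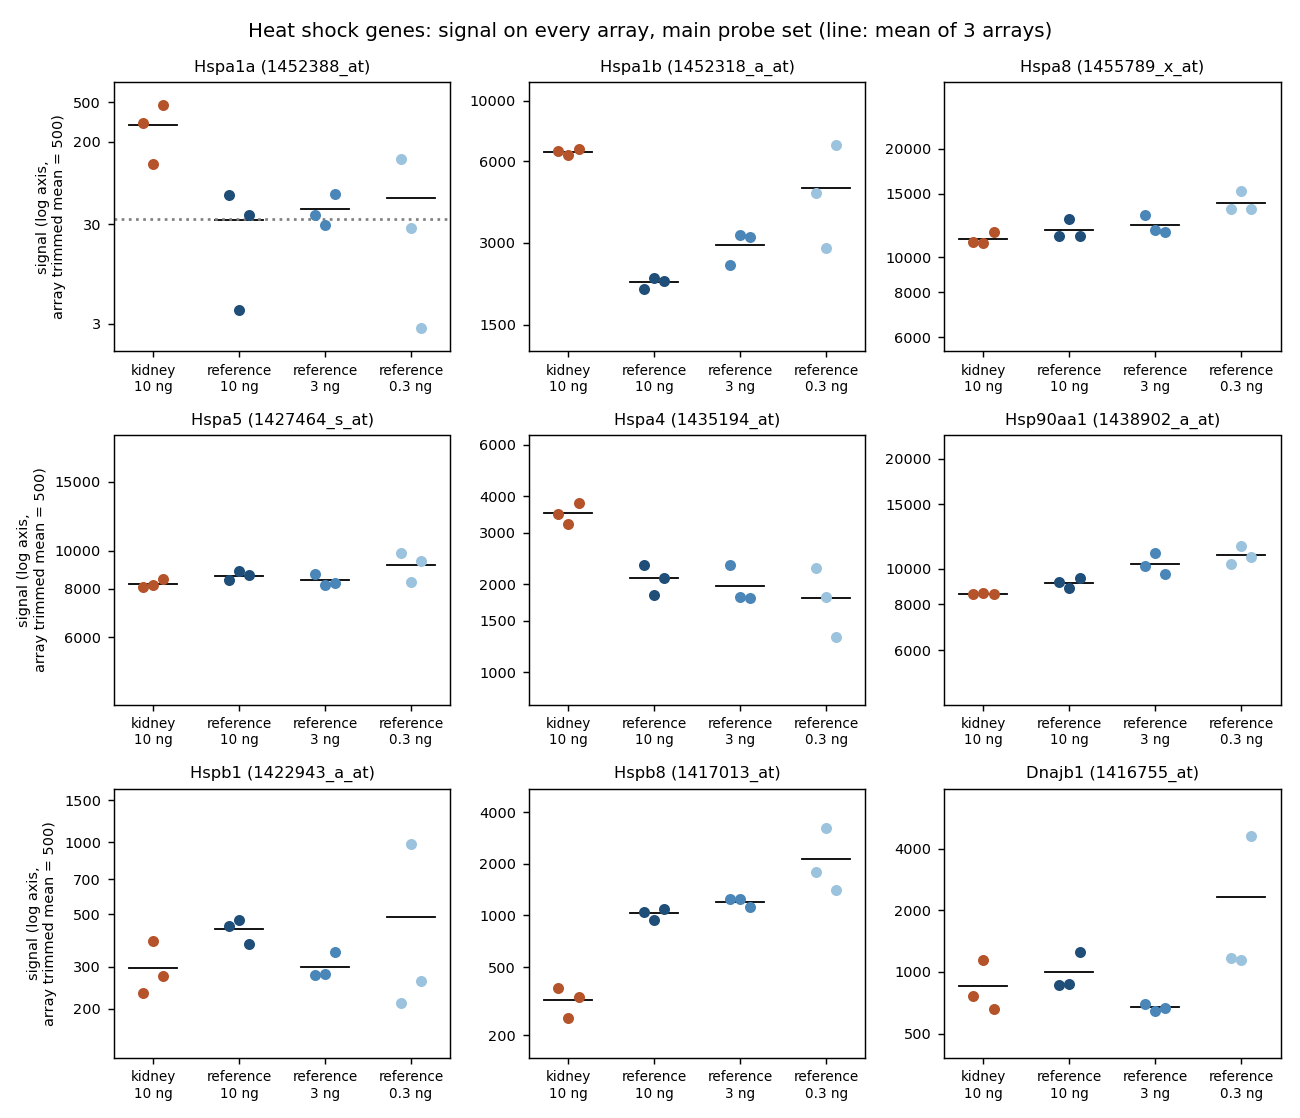
Signal of the main probe set of each of the 9 heat shock genes on every array (log axis, in units where the array's trimmed mean is 500), with 1 point per array and a line at the mean of 3 arrays; the dotted line is the background level. Kidney arrays lie above every 10 ng reference array for Hspa1a, Hspa1b and Hspa4 and below them for Hspb8.

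Hspa1b, which encodes an HSP70 that is strongly induced by heat and other stress, had on its main probe set 1452318_a_at signals of 6512, 6328 and 6650 in kidney and of 2030, 2224 and 2177 in the reference at 10 ng. Every kidney array was therefore far above every 10 ng reference array, and arrays within each of these groups lay close together. The means were 6497 ± 162 and 2144 ± 102 (SD, n = 3), a log2 fold change of 1.60 (SE 0.12, 95% interval 1.31 to 1.88, limma adjusted p = 0.000164). A second probe set, 1427127_x_at, gave 340, 356 and 390 in kidney and 176, 189 and 140 in the reference at 10 ng, without overlap (log2 fold change 1.10, SE 0.16, limma adjusted p = 0.00220). The _x_at suffix marks probes that can also bind other transcripts. The third, 1427126_at, read 99.8, 103 and 156 in kidney and 65.1, 96.3 and 44.9 in the reference at 10 ng. These arrays did not overlap either, but the probe set was not called as deposited, with means of 119 ± 31.3 and 68.8 (log2 fold change 0.80, limma adjusted p = 0.0742), but was called after centring (1.04, adjusted p = 0.0411) and after quantile normalization (1.04, adjusted p = 0.0368).

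Hspa1a encodes an inducible HSP70 nearly identical to that of Hspa1b, and its only probe set, 1452388_at, gave a far weaker signal with a wide spread. Kidney arrays read 306, 119 and 465, and reference arrays at 10 ng read 59.2, 4.10 and 36.6, of which 1 was below background. The groups did not overlap, and the means were 297 ± 173 and 33.3 ± 27.7. This probe set passed the filter on low signal (65.4) only through kidney. Its reference means were 33.3, 42.0 and 55.5 at 10, 3 and 0.3 ng. Its call as higher in kidney is therefore not independent of the filter. The log2 fold change was 3.26 (SE 0.90, 95% interval 1.05 to 5.47, limma adjusted p = 0.0226), or 2.51 when signals under background were raised to it. The call was lost without kidney replicate 1 (3.14, limma adjusted p = 0.0614) and without kidney replicate 3 (2.84, adjusted p = 0.0652). Because the copies share most of their sequence, how the signal divides between Hspa1a and Hspa1b is uncertain.

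The constitutive HSP70 genes showed no call on their main probe sets. Hspa8, the cognate HSP70 that serves folding and clathrin uncoating in most cells, read 11000, 10958 and 11749 in kidney and 11482, 12792 and 11417 in the reference at 10 ng on 1455789_x_at. The ranges overlapped, and the log2 fold change was -0.08 (SE 0.12, 95% interval -0.38 to 0.22, limma adjusted p = 0.585); its sign turned to 0.16 after centring and 0.15 after quantile normalization. The probe sets 1420622_a_at and 1420623_x_at gave -0.09 and -0.11, also not called. The dimmest probe set, 1431182_at, differed from these, with 126 ± 29.7 in kidney against 240 ± 46.1 (log2 fold change -0.92, SE 0.23, limma adjusted p = 0.0174). That call was lost without reference 10 ng replicate 3 (-0.77, adjusted p = 0.0528).

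Hspa5, the HSP70 of the endoplasmic reticulum also called BiP, read 8073, 8147 and 8454 in kidney and 8393, 8857 and 8654 in the reference at 10 ng on 1427464_s_at. These ranges overlapped slightly. The log2 fold change was -0.07 (95% interval -0.35 to 0.21, limma adjusted p = 0.611), and 0.17 after centring. The bright 1416064_a_at gave -0.25 (adjusted p = 0.197) and the dim 1447824_x_at gave 0.98 (adjusted p = 0.125).

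Hspa4, a relative of HSP70 that acts as a nucleotide exchange factor for it, was measured by 4 probe sets that disagreed in direction. On the main one, 1435194_at, kidney arrays read 3483, 3211 and 3802 and reference arrays at 10 ng read 2337, 1846 and 2107, without overlap. This is a log2 fold change of 0.74 (SE 0.15, 95% interval 0.37 to 1.11, limma adjusted p = 0.00725). On 1416146_at the order was the opposite, with 1176, 1154 and 1275 in kidney and 2781, 3204 and 2615 in the reference (log2 fold change -1.25, SE 0.14, limma adjusted p = 0.000712). The dimmer 1416147_at gave 0.74 and was not called (adjusted p = 0.106). On 1440575_at all kidney arrays lay below background, at 9.50, 7.20 and 5.90, against 112, 56.2 and 125 in the reference, so kidney was at least 2.90-fold lower (limma adjusted p = 0.000618). That probe set passed the filter on low signal only through the reference at 10 and 3 ng. No single direction can therefore be given for Hspa4, as its probe sets disagree, and which transcripts each probe set detects was not tested.

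Hsp90aa1, the stress-responsive cytosolic HSP90, read 8514, 8579 and 8537 in kidney and 9203, 8869 and 9430 in the reference at 10 ng on 1438902_a_at. Kidney arrays were below every reference array, but by little. The means were 8543 ± 32.9 and 9167 ± 282, a log2 fold change of -0.10 (SE 0.11, 95% interval -0.38 to 0.17, limma adjusted p = 0.461) that turned to 0.14 after centring. Its other tested probe sets, 1437497_a_at, 1426645_at and 1441827_x_at, gave -0.33, -0.26 and -0.44 and were not called either.

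Hspb8, a small heat shock protein that works with the co-chaperone Bag3 in selective autophagy, was lower in kidney on all 3 of its probe sets. On 1417013_at kidney arrays read 380, 252 and 335, and reference arrays at 10 ng read 1054, 947 and 1093. The groups were well apart, with means of 322 ± 64.7 and 1031 ± 75.7 and a log2 fold change of -1.68 (SE 0.19, 95% interval -2.15 to -1.22, limma adjusted p = 0.000773). On 1456434_x_at kidney was under background on every array, with means of 14.1 and 120, and so at least 3.56-fold lower (limma adjusted p = 0.00397). On 1417014_at, near background, the log2 fold change was -0.95 (limma adjusted p = 0.0115), or -0.67 with signals raised to background. This last call was lost with an intensity trend in the variance model (adjusted p = 0.0684). Of the 3 probe sets, only 1417013_at was above the filter level of 65.4 in kidney. 1456434_x_at passed the filter through the reference groups alone. 1417014_at passed through 0.3 ng alone, with reference means of 58.4, 58.6 and 72.3 at 10, 3 and 0.3 ng. Neither is therefore independent support for the first.

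Hspb1, the small heat shock protein that also binds actin filaments, read 233, 386 and 276 in kidney and 445, 474 and 376 in the reference at 10 ng on 1422943_a_at. Replicate 2 of kidney overlapped the reference. The log2 fold change of -0.55 (SE 0.22, limma adjusted p = 0.0749) was not called, and became -0.75 (adjusted p = 0.0230) without that array. Its second probe set, 1425964_x_at, gave -0.72 (adjusted p = 0.0540).

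Dnajb1, a heat-inducible J-domain protein that stimulates the ATPase of HSP70, was not called on its main probe set 1416755_at, which read 762, 1141 and 662 in kidney and 865, 872 and 1246 in the reference at 10 ng. The ranges overlapped, and the log2 fold change was -0.23 (95% interval -0.89 to 0.42, limma adjusted p = 0.473). The dimmer 1416756_at was called, with 246, 275 and 219 in kidney and 424, 454 and 436 in the reference, without overlap (log2 fold change -0.82, SE 0.14, limma adjusted p = 0.00349).

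**Figure D2:**
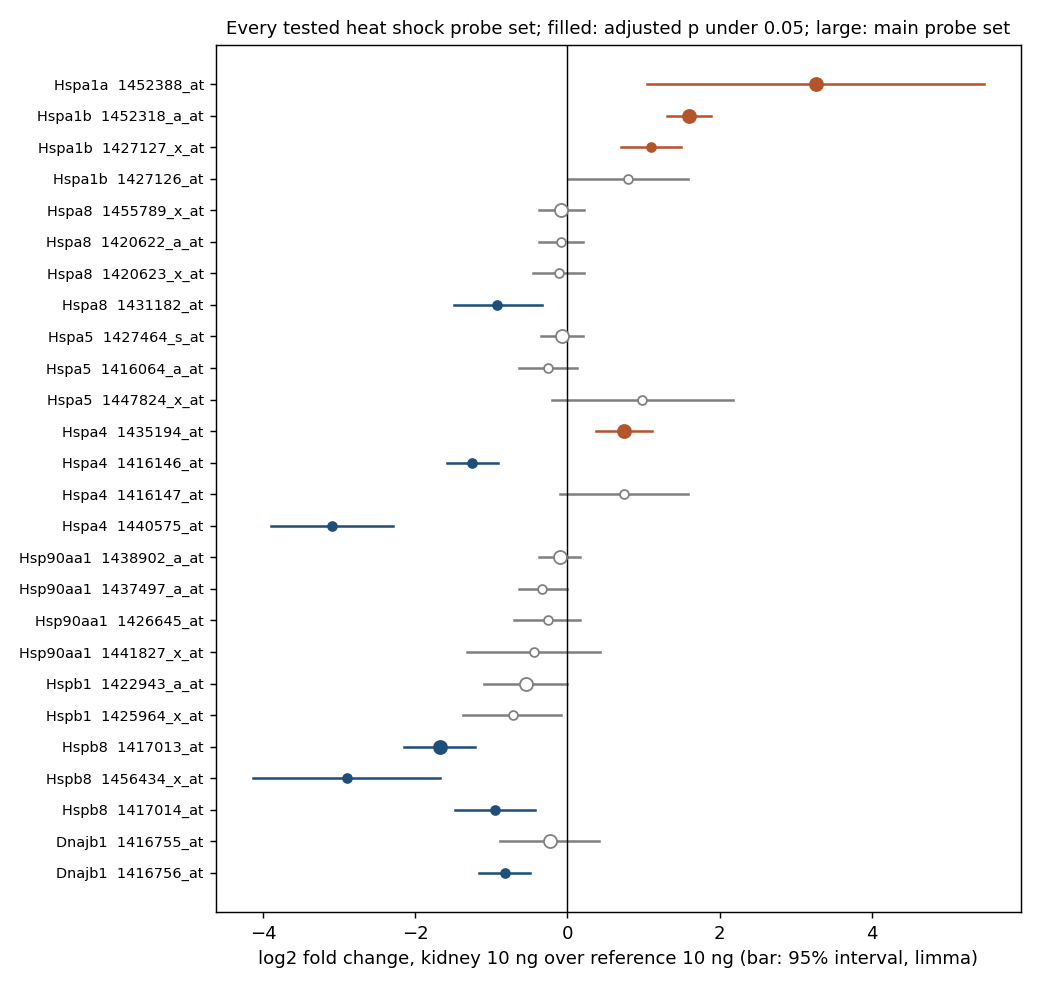
Log2 fold change of kidney at 10 ng over the reference at 10 ng for each of the 26 tested heat shock probe sets, with the 95% interval of the limma fit as a bar; filled points passed an adjusted p of 0.05, and large points are main probe sets. Hspa1a, 2 probe sets of Hspa1b and Hspa4 1435194_at are filled above 0. All 3 of Hspb8, Hspa4 1416146_at and 1440575_at, Hspa8 1431182_at and Dnajb1 1416756_at are filled below 0. The main probe sets of Hspa8, Hspa5 and Hsp90aa1 are open and lie next to 0.

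The reference RNA at 3 and 0.3 ng shows how far the heat shock signals held when less of the same RNA was used. Between 3 and 10 ng limma called 0 of the 26 probe sets, against a background of 0% of 27022. At an unadjusted p under 0.05 there were 5 of the 26 and 2736 of all probe sets (10.1%). Between 0.3 and 10 ng it again called 0 of 26, with 0.796% of all probe sets called, and 6 of 26 had an unadjusted p under 0.05, as did 4175 of all (15.5%). Between 0.3 and 3 ng the counts were 0 of 26, a background of 0.241%, and 2 of 26 against 3620 of all (13.4%) before adjustment. When all 12 arrays were fitted together, 1440575_at of Hspa4 was called in both comparisons of 0.3 ng, lower at 0.3 ng with adjusted p = 0.0403 against 10 ng and 0.0316 against 3 ng. That probe set read 112, 56.2 and 125 at 10 ng, 131, 63.4 and 154 at 3 ng and 11.6, 2.80 and 38.9 at 0.3 ng, so 2 of its 0.3 ng arrays were below background. In the separate fits its log2 fold changes at 0.3 ng were -2.55 against 10 ng (limma adjusted p = 0.192; -1.30 with signals raised to background) and -2.78 against 3 ng (adjusted p = 0.210).

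Of the 3 probe sets of Hspa1b, the brightest had its highest mean at 0.3 ng among the reference inputs and the others had their lowest there, and none of these differences was called. On 1452318_a_at the reference read 2030, 2224 and 2177 at 10 ng, 2490, 3213 and 3160 at 3 ng and 4595, 2877 and 6882 at 0.3 ng. All arrays at 3 and at 0.3 ng were above those at 10 ng, while the 3 and 0.3 ng arrays overlapped. The log2 fold change against 10 ng was 0.45 at 3 ng (limma adjusted p = 0.441) and 1.07 at 0.3 ng (SE 0.36, 95% interval 0.18 to 1.96, adjusted p = 0.252). On 1427127_x_at the arrays read 176, 189 and 140, then 130, 180 and 89.4, then 121, 50.5 and 58.7 in the same order of inputs. Here the 0.3 ng arrays all lay below the 10 ng arrays, at -1.18 (SE 0.38, 95% interval -2.12 to -0.25, limma adjusted p = 0.232). The dimmest, 1427126_at, read 89.9, 69.8 and 59.9 at 3 ng and 71.2, 16.3 and 53.8 at 0.3 ng, overlapping the 10 ng arrays at both inputs (-0.65 at 0.3 against 10 ng, limma adjusted p = 0.622). In order of mean signal, 1452318_a_at ran from kidney through 0.3, 3 and 10 ng, and kidney and 0.3 ng overlapped as did 0.3 and 3 ng. Hspa1a read 36.7, 29.7 and 59.7 at 3 ng and 136, 27.5 and 2.70 at 0.3 ng. The highest of these, replicate 1 at 0.3 ng, lay well above background and above the lowest kidney array, at 119, while the other two 0.3 ng arrays were below background. Its log2 fold change at 0.3 ng against 10 ng, 0.17, had a 95% interval of -3.03 to 3.37.

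**Figure D3:**
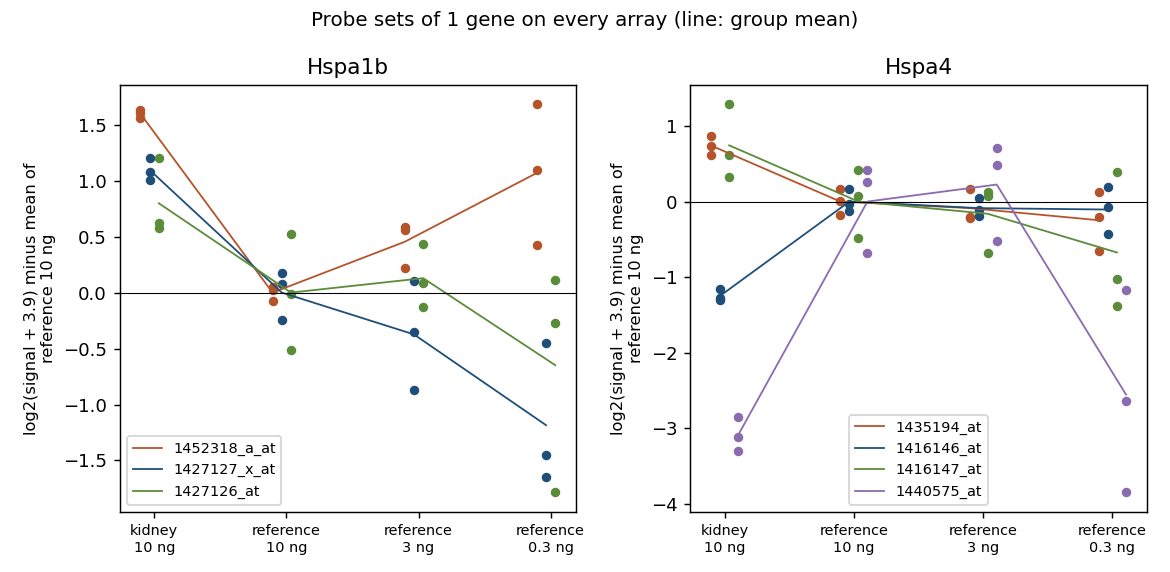
Probe sets of Hspa1b (left) and Hspa4 (right) on every array, as log2(signal + 3.9) minus the probe set's mean in the reference at 10 ng, with 1 point per array and a line through the 4 group means. In kidney the 3 Hspa1b probe sets lie above 0 (means 1.60, 1.10 and 0.80) and those of Hspa4 lie on both sides (0.74, -1.25, 0.74 and -3.09); at 0.3 ng the mean of Hspa1b 1452318_a_at is at 1.07 and that of 1427127_x_at at -1.18.

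The main probe sets of Hspa8, Hspa5 and Hsp90aa1 varied least between the 0.3 ng arrays among the 9 genes. At 0.3 ng Hspa8 read 13639, 15268 and 13590 on its main probe set, Hspa5 read 9861, 8311 and 9396, and Hsp90aa1 read 10291, 11565 and 10788. The 0.3 ng arrays of Hspa8 and of Hsp90aa1 were all above the 10 ng arrays, and those of Hspa5 overlapped them. Against 10 ng the log2 fold changes were 0.25 (95% interval -0.27 to 0.78), 0.09 (-0.44 to 0.61) and 0.25 (-0.27 to 0.76), none called, and those of Hspa8 and Hspa5 turned to -0.01 and -0.11 after quantile normalization. At 3 ng they were 0.04, -0.04 and 0.16. Of the further Hsp90aa1 probe sets, 1437497_a_at had means of 3200 ± 132, 3713 ± 174 and 4872 ± 527 at 10, 3 and 0.3 ng (0.60 at 0.3 against 10 ng, limma adjusted p = 0.281). The main probe set of Hspa4 gave 2097 ± 246, 1980 ± 307 and 1801 ± 477 at the 3 inputs and -0.25 at 0.3 against 10 ng, turning to 0.18 after centring.

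Hspb8, Hspb1 and Dnajb1 varied more at 0.3 ng. Hspb8 1417013_at read 1251, 1240 and 1116 at 3 ng and 1793, 3225 and 1401 at 0.3 ng, with each 0.3 ng array above every array at 3 and 10 ng. The log2 fold change against 10 ng was 0.22 at 3 ng and 0.96 at 0.3 ng (SE 0.36, limma adjusted p = 0.288). Hspb1 1422943_a_at read 277, 280 and 347 at 3 ng and 212, 989 and 261 at 0.3 ng, where replicate 2 stood far above the others. All 3 ng arrays lay below the 10 ng arrays, at a log2 fold change of -0.51 (limma unadjusted p = 0.0235, adjusted p = 0.428). Its second probe set, 1425964_x_at, read 269, 177 and 254 at 10 ng and 142, 93.3 and 85.1 at 3 ng, again without overlap (-1.11, limma unadjusted p = 0.00590, adjusted p = 0.346). The log2 fold change of 1422943_a_at at 0.3 ng against 10 ng, -0.17 (95% interval -1.67 to 1.32), was -0.86 without that array (adjusted p = 0.167) and turned positive after centring (0.26) and quantile normalization (0.02). Dnajb1 1416755_at read 701, 648 and 665 at 3 ng and 1173, 1148 and 4618 at 0.3 ng, where replicate 3 stood apart. Its 3 ng arrays also lay below every 10 ng array (-0.54, limma unadjusted p = 0.0286, adjusted p = 0.438). At 0.3 ng the log2 fold change was 0.91 against 10 ng (95% interval -0.57 to 2.38, limma adjusted p = 0.520) and 1.45 against 3 ng (adjusted p = 0.371), and 0.24 and 0.79 without that array. On the other probe set of Dnajb1, 1416756_at, that array was the lowest of its group, at 336 beside 701 and 484.

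**Figure D4:**
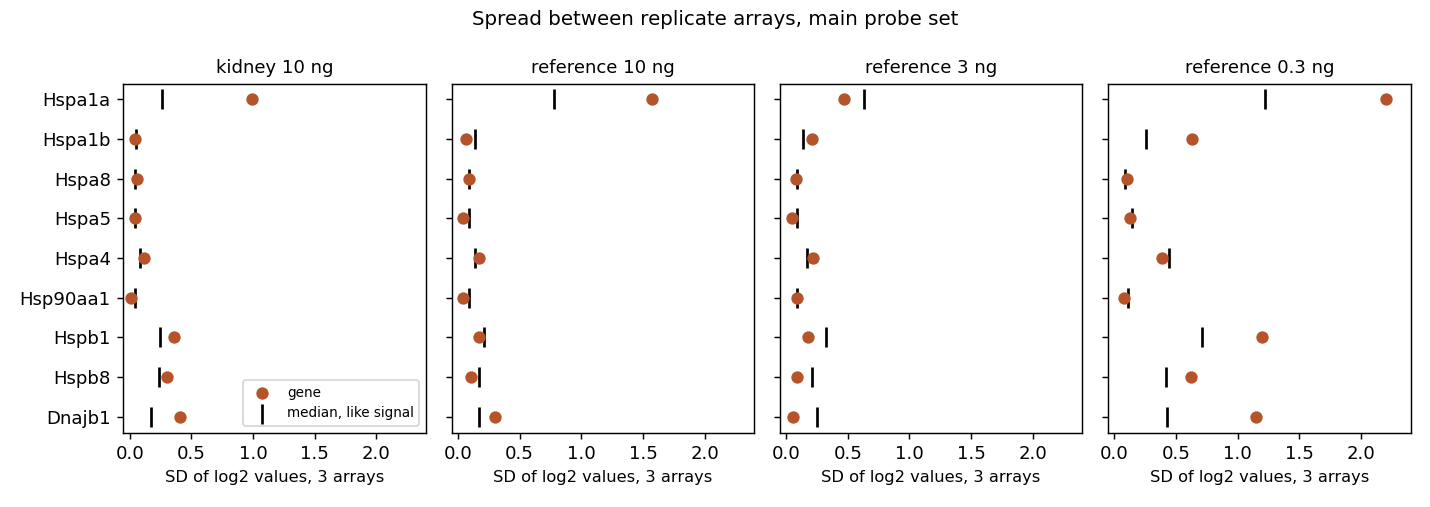
SD of log2 signal among the 3 arrays of a group (horizontal axis, 1 panel per group) for the main probe set of each heat shock gene (points), with the median SD of tested probe sets of like signal in that group (black ticks). At 0.3 ng Hspa1a reached 2.20, Hspb1 1.20 and Dnajb1 1.15, while Hspa8, Hspa5 and Hsp90aa1 lay at 0.10, 0.13 and 0.08.

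The spread between arrays differed among the genes. The median SD of log2 signal over all tested probe sets was 0.26 in kidney and 0.24, 0.31 and 0.69 in the reference at 10, 3 and 0.3 ng, so fits that include the 0.3 ng arrays take an equal variance that the data do not have. For Hspa8, Hspa5 and Hsp90aa1 the SD at 0.3 ng was 0.10, 0.13 and 0.08, beside medians of 0.09, 0.14 and 0.11 for probe sets of like signal. Hspa1a had the highest SD of the 9 genes at 0.3 ng, 2.20 beside 1.22 for its like, and at 10 ng, 1.57 beside 0.78. At 0.3 ng that of Hspa1b was 0.63 beside 0.26, that of Dnajb1 1.15 beside 0.43 and that of Hspb1 1.20 beside 0.71. In kidney Hspa1a had an SD of 0.99 beside 0.26 for its like, and Dnajb1 0.41 beside 0.17. These SDs rest on 3 arrays each and are given as a description.

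Kidney at 10 ng was also set against the reference at the lower inputs, where tissue and input change together and the kidney arrays are the same as above. Against 3 ng, 13 of 26 heat shock probe sets were called, 4 higher and 9 lower, with a background of 56.7% (21.8% higher and 34.9% lower), and without kidney replicate 3 there were 8. Over all probe sets, 15308 were called, and 13036 to 13657 on leaving out each array in turn. By main probe sets 4 of 9 genes were called, where 57.8% of all genes were (26.4% higher and 31.4% lower): Hspa1a at 2.56 (limma adjusted p = 0.00962), Hspa1b at 1.15 (0.00203) and Hspa4 at 0.83 (0.00881), all higher, and Hspb8 at -1.91 (0.000658). Other probe sets of Hspa4 were called lower against 3 ng, 1416146_at at -1.16 (limma adjusted p = 0.00124) and 1440575_at at -3.31 (adjusted p = 0.000779). The call of Hspa1a was lost when all 12 arrays were fitted together (adjusted p = 0.0767). Centring changed the split of probe sets to 6 higher and 4 lower, and quantile normalization to 6 and 6. Over all probe sets the splits were 7550 higher and 6546 lower, and 6495 and 8003. Against 0.3 ng, 7 of 26 were called, 2 higher and 5 lower, with a background of 34.8% (18.1% higher and 16.7% lower). By main probe sets 1 gene of 9 was higher and 1 lower, with 37.6% of all genes called (20.9% higher and 16.7% lower). Leaving out kidney replicate 1, 2 or 3 brought the 7 called probe sets down to 3, 2 and 2. Calls over all 27022 probe sets fell as well, from 9414 to 5516, 5549 and 5529. Hspb8 was lower at -2.65 (limma adjusted p = 0.00463). Hspa1a, called against 10 and 3 ng, was not called here, with overlapping arrays and a log2 fold change of 3.09 (limma adjusted p = 0.0937). The main probe set of Hspa1b, also with overlapping arrays, was not called at 0.53 (adjusted p = 0.299), while 1427127_x_at was, at 2.28 (adjusted p = 0.00663). Hsp90aa1 1437497_a_at was called lower at -0.93 (adjusted p = 0.0237), a call lost on leaving out any 1 kidney array. For Hspa4, 1435194_at was called at 0.99 (adjusted p = 0.0406) and 1416146_at at -1.14 (adjusted p = 0.0187). The first of these was lost on leaving out any kidney array or reference 0.3 ng replicate 2 or 3, with adjusted p from 0.0568 to 0.138, and the second on leaving out any kidney array.

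Other genes of the chaperone system were followed in lists, for kidney against the reference at 10 ng and by each gene's main probe set, beside the background of 27.1% higher and 35.6% lower. Of 3 other small heat shock genes tested, Cryab, the lens and muscle chaperone alpha-B crystallin, was higher in kidney at 11925 ± 153 against 5051 ± 493 (log2 fold change 1.24, limma adjusted p = 0.000590), and Hspb6 was lower (-1.17). Of 8 other HSP70 relatives, Hspa12a (1.47) and Hspa2 (0.61) were higher and Hspa14 (-1.53) was lower, with a list median of 0.13. Hspa12a had means of 160 in kidney and 56.7 in the reference at 10 ng, the second under the filter level of 65.4. Its call may therefore not be independent of the filter. The 2 other HSP90 genes had no call and a median of -0.16, which became 0.09 after centring. Of 13 other J-domain genes 4 were higher and 2 lower, among them Dnaja4 at 428 ± 195 against 75.5 ± 43.0 (2.49, limma adjusted p = 0.00593) and Dnajb9, an endoplasmic reticulum partner of Hspa5 (1.25); Dnajb4 (-0.84) and Dnajc7 (-0.48) were lower, the last not called after centring.

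Co-chaperones moved in both directions. Stip1, which hands clients from HSP70 to HSP90, was lower in kidney at 509 ± 56.7 against 1250 ± 147 (log2 fold change -1.29). Among the 7 HSP90 co-chaperones, Sugt1 was also lower (-0.59, not called after centring) and Fkbp5, a glucocorticoid-induced immunophilin, was higher (0.81). Of 9 exchange factors and partners of HSP70, 3 were higher, including Bag1 (0.95) and Bag4 (0.61), and Bag2 was lower (-1.06). Among the 4 genes of the mitochondrial chaperonin and exchange factors, Grpel2 (0.83) and Grpel1 (0.54) were higher and Hspe1 was lower (-0.52, not called after centring). The tested genes of the heat shock factor list, Hsf2 at 0.69 (limma adjusted p = 0.227) and Hsbp1 at -0.04 (adjusted p = 0.870), were not called.

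Stress genes outside the heat shock families were read as neighbours of the members. Of 12 endoplasmic reticulum stress genes 1 was higher in kidney and 6 lower, against 2 higher and 3 lower after centring, with Herpud1 higher at 3046 ± 123 against 1044 ± 91.1 (log2 fold change 1.54), and Ddit3 (-1.85) and Atf4 (-0.99) lower. All 8 immediate early genes, which are transcribed within minutes of growth signals or stress, were lower in kidney, with a median of -2.54, and 7 of 8 were called after centring or quantile normalization. Over all 27022 probe sets, 7540 were called higher and 7805 lower after centring, and 6848 and 8847 after quantile normalization. Fos read 93.3 ± 22.3 against 5106 ± 815 (-5.73), and Fosb, with kidney under background, was at least 7.79-fold lower. The summed signal of this list was 10100 to 10520 in kidney and 33507 to 42684 in the reference at 10 ng. Its part in the higher Hspa1a and Hspa1b signal of kidney was not tested.

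**Figure D5:**
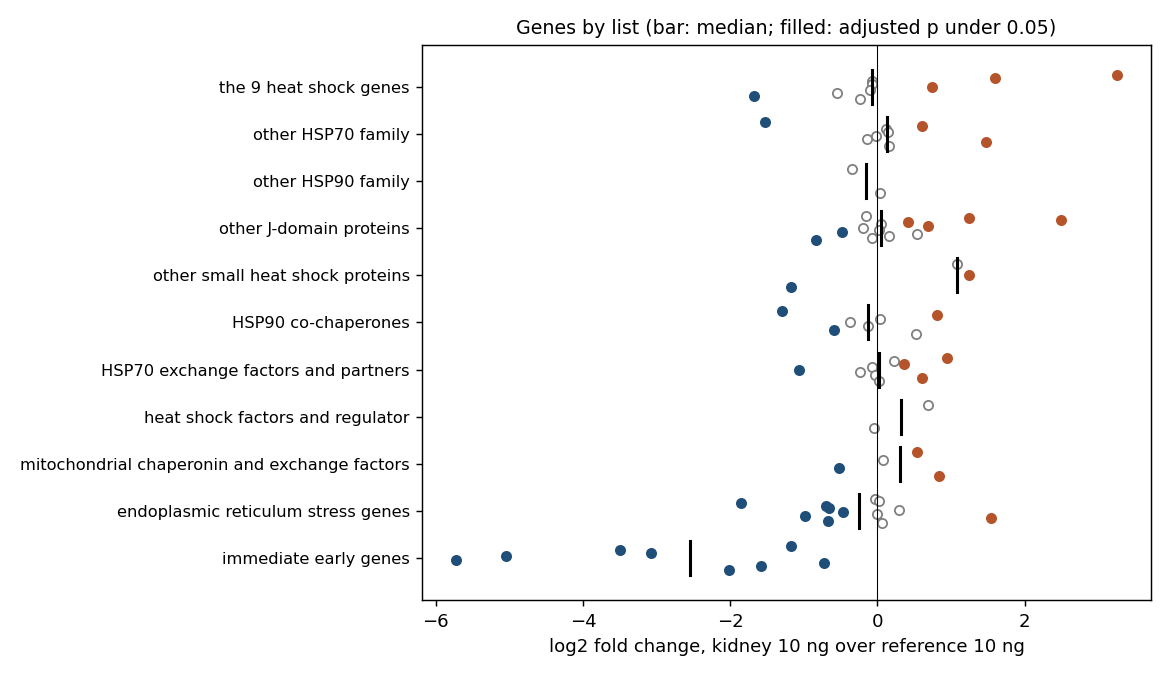
Log2 fold change of kidney against the reference at 10 ng (horizontal axis) for the tested genes of each list (rows), with 1 point per gene, filled where the adjusted p was under 0.05, and a black bar at the list's median. The immediate early genes all lie below 0, with a median of -2.54, while the chaperone lists lie on both sides of 0.

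Genes with the pattern nearest to that of Hspa1b and Hspa8 were taken by the Euclidean distance between log2 signals on the 12 arrays, each probe set centred on its own mean, among 12819 other genes. Nearest to Hspa1b were Ccdc107 at 0.89, Gata2 at 0.95 and Dgcr6 at 1.04, where the median gene was at 3.62. Ccdc107 had mean signals of 4953 in kidney and 1583, 1913 and 2734 in the reference at 10, 3 and 0.3 ng, which repeats the order of Hspa1b. Nearest to Hspa8 were Alkbh5 at 0.22, Canx at 0.23 and Vdac1 at 0.23, with a median gene at 2.50. All 12 arrays and their scale are shared by these genes, and the distances are a description.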

How the data were processed

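The deposited values are linear array intensities, 1 per probe set and array. Tested on the values, each array's 2% trimmed mean was 500. The authors' summary method, background correction, software, amplification and labelling were not given in the sources used here. Probe sets took symbols from the platform annotation, which can be old (34945 with 1 symbol, 932 with several, 9160 with none). The heat shock genes, lists and tests were chosen with earlier results of these data known.

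The values were log2-transformed after adding 3.9, the 10th percentile of positive values. After 64 control probe sets were left out, a probe set was tested if its highest group mean lay above the 40th percentile (signal 65.4). A probe set could so pass only through the group in which it was then called higher. The background level is the 95th percentile of signal over 27 control probe sets for Bacillus genes; where every array of a group lay below it, a fold is a lower bound. Each comparison was fitted with limma 3.58.1 in R 4.3.3 on its own 6 arrays, two-sided, without covariates. In the lists, up to 2 called genes a direction with the largest change were named. The alternatives tried were other pseudocounts, filters, scalings, variance models, probe set choices and leaving out each array. The number of arrays limits the precision.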

Additional observations from a re-analysis of the deposited data

How the results depend on the processing

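For kidney against the reference at 10 ng, 10 to 13 of the 26 heat shock probe sets were called on leaving out each array in turn. Against the reference at 3 ng the range was 8 to 11, and against 0.3 ng 2 to 7. Between the reference inputs it was 0 to 0 in all 3 comparisons. With no filter on low values, the kidney comparisons with 3 and 0.3 ng gave 8 and 4 calls. Over all probe sets, the comparison with 0.3 ng then gave 7757 calls of 45037. The matching count for 3 ng is not given here, so its 8 heat shock calls are not read as a result about these genes. Against 0.3 ng there were 12 with all 12 arrays in 1 fit and 11 with an intensity trend. Over all 27022 probe sets these settings gave 13364 and 10468 calls, beside 9414 in the main fit. The fit of all 12 arrays called 1 heat shock probe set in each of the comparisons of 0.3 ng with 10 and 3 ng.

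Over all probe sets, the 0 calls between 3 and 10 ng became 1 after centring and 5 in the fit of all arrays. The 215 calls between 0.3 and 10 ng became 76 with no filter, 127 when filtering on the mean over arrays, 79 after centring, 72 after quantile normalization, 1571 in the fit of all arrays and 69 with array weights. The 65 between 0.3 and 3 ng became 32 with a pseudocount of 32, 0 with no filter, 37, 21, 3, 1386 and 5 in the same order, and 18 with an intensity trend. Leaving out arrays gave 13980 to 14769, 13036 to 13657 and 5516 to 10245 for kidney against 10, 3 and 0.3 ng, 0 to 595 for 0.3 against 10 ng, 0 to 35 for 0.3 against 3 ng and 0 to 0 for 3 against 10 ng. Why these counts move was not tested.

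No shared deviation of same-numbered arrays was seen. Their deviations from group means correlated between -0.063 and 0.016, and in 11 of 36 cases an array correlated best with its own number. Whether arrays were handled in numbered sets is not stated and cannot be told from these correlations. With a replicate block 13 heat shock probe sets, 6 higher and 7 lower, were called for kidney against the reference at 10 ng. The count over all probe sets with the block is not given here for that comparison. The 13 is therefore not read as a result about these genes. Kidney against 0.3 ng had 2 heat shock calls with the block. For the reference at 0.3 against 10 or 3 ng, 0 of all probe sets were called. Over all 27022 probe sets, kidney against 0.3 ng gave 6660 calls with the block and 9414 without it. The dim Hspa8 probe set 1431182_at had adjusted p = 0.0513 with the block.

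Signs turned only for values that were not called. For kidney against 10 ng, centring gave Hspa8 0.16 (1420622_a_at 0.16, 1420623_x_at 0.13), Hspa5 0.17, Hsp90aa1 0.14 and Dnajb1 0.01, and quantile normalization gave Hspa8 0.15 and 1420622_a_at 0.03. For 3 against 10 ng, Hspa8 was -0.06 after centring, -0.09 on its plain _at probe set and -0.01 to 0.10 on leaving out arrays, and Hspa1a was -0.19 (without reference 10 ng replicate 2) to 1.30. For 0.3 against 10 ng, plain _at probe sets gave Hspa1b -0.65 and Hspa8 -0.76, centring gave Hspa4 0.18 and Hspb1 0.26, and quantile normalization gave Hspa8 -0.01, Hspa5 -0.11 and Hspb1 0.02. On leaving out arrays Hspa1a ran from -0.93 (without reference 0.3 ng replicate 1; -0.72 without reference 10 ng replicate 2) to 1.28, and Hspb1 from -0.86 (without reference 0.3 ng replicate 2) to 0.24 (without replicate 1; 0.09 without replicate 3). Hspa5 and Hspb1 have no plain _at probe set, and Hspa4 1440575_at did not pass the filter on the mean over arrays, so those alternatives gave no value. The cause was not tested.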
